A study of Mus musculus with 5 samples.

Results

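Short H3K27me3 regions that lie in or against H2AK119ub chromatin were examined in basal progenitor cells of the mouse epidermis. These are the regions of the H3K27me3 list on the 19 autosomes that are under 30 kb wide and share at least 1 bp with a region of the H2AK119ub list. The rule was met by 8417 regions, which is 65.0% of the 12952 autosomal and 55.7% of all 15102 H3K27me3 regions. They were chosen by their width and by the overlap of the called regions, so width and overlap are given below as a description. The mice were controls aged 71 postnatal days that carried 2 reporters, K14-RFP, driven by the promoter of the basal keratin Krt14, and K10-H2B-GFP, driven by that of the suprabasal keratin Krt10. From their back skin, cells with Sca1(+) surface staining that were RFP(high) and without the suprabasal reporter, GFP(-), were sorted. Chromatin was immunoprecipitated for H2AK119ub (2 libraries) and for H3K27me3 (2 libraries), with 1 input library. There is 1 list of regions per mark, with no height, score or replicate column, so depth and replicate error are unknown, no difference between sets of regions was tested, and every value describes these lists. Of 8 marker genes of the basal epidermis, such as Krt5, Krt14 and Trp63, 0 had H3K27me3 within 1 kb of an annotated end, against 22.1% of all autosomal protein-coding genes, and 7 had H2AK119ub, against 56.4%. H3K27me3 lay at 0 of 5 melanocyte, 1 of 3 endothelial, 2 of 5 suprabasal and 2 of 3 immune markers. It lay at 3 of 5 fibroblast and 5 of 5 Merkel cell markers. Lack of the mark thus does not single out basal cells.

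H3K27me3 is placed by Polycomb repressive complex 2 and H2AK119ub by Polycomb repressive complex 1. Both marks are known from the starts of developmental genes that a cell type keeps silent, and in mammals the complexes are recruited mainly to stretches of DNA rich in unmethylated CpG dinucleotides. The widest Polycomb domains are known from clusters of developmental transcription factor genes. The regions described here are narrower and more numerous than the H3K27me3 regions of 30 kb or more in the same list. Whether they are the same kind of chromatin was not tested.

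Promoters at the centre of such regions differed widely in CpG content. The sequences below run from 250 bases before to 50 after a gene start, are printed 5′ to 3′ on the gene's strand with every CG in capitals, and come from RefSeq on GRCm38.p6, the same build as mm10. Pcdh10, Gdf10, Sox13, Asip and Robo4 are taken from 8 genes whose start lay nearest the centre of their region. Those 8 were sought only among the pigmentation genes and the up to 3 genes per gene list with the widest region. The genes shown were picked after their values were seen. Gdf10, Sox13, Asip and Robo4 stand at the ends of the range of CG counts among the 8, and Pcdh10 lies between. Kitl was added afterwards because its start lies just outside its region. The protocadherin gene Pcdh10, at chr3:45378148-45378447 (plus strand), has 24 CG. Gdf10, which encodes a ligand of the BMP family, has 42 at chr14:33923337-33923636 (plus strand). Sox13, an HMG box factor gene, has 40 at chr1:133424163-133424462 (minus strand). Only 3 CG stand at the listed start of Asip, the agouti signal that turns melanocytes to yellow pigment, at chr2:155013320-155013619 (plus strand). Robo4, an endothelial guidance receptor gene, has 2 at chr9:37401722-37402021 (plus strand). Kitl, the ligand of the melanocyte receptor Kit, has 28 at chr10:100015571-100015870 (plus strand).
Pcdh10: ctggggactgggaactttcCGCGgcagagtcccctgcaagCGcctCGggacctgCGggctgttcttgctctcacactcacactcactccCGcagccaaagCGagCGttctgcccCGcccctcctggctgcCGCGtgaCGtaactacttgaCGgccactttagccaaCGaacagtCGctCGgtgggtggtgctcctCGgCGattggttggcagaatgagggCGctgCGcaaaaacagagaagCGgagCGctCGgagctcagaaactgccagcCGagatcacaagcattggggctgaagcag
Gdf10: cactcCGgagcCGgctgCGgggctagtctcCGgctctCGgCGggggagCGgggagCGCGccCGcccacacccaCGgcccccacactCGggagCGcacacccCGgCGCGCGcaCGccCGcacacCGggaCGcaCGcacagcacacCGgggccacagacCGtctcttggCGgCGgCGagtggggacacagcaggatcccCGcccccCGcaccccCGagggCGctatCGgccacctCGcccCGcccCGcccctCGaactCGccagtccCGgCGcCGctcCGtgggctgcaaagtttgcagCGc
Sox13: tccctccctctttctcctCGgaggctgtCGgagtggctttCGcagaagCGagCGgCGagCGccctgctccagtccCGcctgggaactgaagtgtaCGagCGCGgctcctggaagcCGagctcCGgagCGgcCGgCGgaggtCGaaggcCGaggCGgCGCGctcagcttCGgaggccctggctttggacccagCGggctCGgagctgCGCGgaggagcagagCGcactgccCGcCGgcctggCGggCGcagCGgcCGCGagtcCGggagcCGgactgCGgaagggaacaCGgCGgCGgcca
Asip: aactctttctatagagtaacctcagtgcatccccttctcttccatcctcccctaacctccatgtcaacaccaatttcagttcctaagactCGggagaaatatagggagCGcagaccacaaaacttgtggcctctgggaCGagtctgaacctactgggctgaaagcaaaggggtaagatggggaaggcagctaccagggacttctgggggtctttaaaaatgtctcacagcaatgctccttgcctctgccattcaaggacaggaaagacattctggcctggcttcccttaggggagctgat
Robo4: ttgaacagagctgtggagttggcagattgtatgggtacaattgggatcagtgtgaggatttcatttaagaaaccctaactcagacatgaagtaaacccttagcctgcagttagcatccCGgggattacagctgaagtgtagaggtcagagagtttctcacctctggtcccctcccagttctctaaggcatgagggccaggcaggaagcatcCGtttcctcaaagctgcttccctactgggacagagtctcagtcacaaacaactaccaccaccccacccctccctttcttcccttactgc
Kitl: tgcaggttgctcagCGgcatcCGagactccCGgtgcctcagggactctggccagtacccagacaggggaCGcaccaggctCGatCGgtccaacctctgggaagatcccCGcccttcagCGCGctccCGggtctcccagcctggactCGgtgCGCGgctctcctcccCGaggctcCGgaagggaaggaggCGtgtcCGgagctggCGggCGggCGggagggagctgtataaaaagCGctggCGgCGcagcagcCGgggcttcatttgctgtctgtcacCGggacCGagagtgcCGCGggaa

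MicroRNA genes with shared seeds also lay in these regions. Among microRNA genes in short regions with H2AK119ub, 4 seeds were shared by 2 or more genes. Those not shown here are UGGUCAC (Mir3073a and Mir3073b) and AUCACUA (Mir34b and Mir34c). The mature sequences below are from the same RefSeq tables, with the seed (bases 2 to 8) in capitals. They show 2 groups of microRNAs that share a seed and lie in 3 regions on chromosomes 9, 11 and 13.
miR-34b-5p: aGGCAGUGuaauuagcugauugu
miR-449a-5p: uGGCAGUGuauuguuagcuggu
miR-449c-5p: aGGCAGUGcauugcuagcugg
miR-132-3p: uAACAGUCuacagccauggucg
miR-212-3p: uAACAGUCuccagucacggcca

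The regions were narrow, and few approached the limit. The median width was 8.20 kb, the quartiles were 4.93 and 13.3 kb, and the range was 0.526 to 29.96 kb. There were 2146 regions under 5 kb, 2935 of 5 to 10 kb, 2530 of 10 to 20 kb and 806 of 20 to 30 kb. Together they spanned 83.0 Mb, or 55.3% of the autosomal H3K27me3 length. Short H3K27me3 regions without H2AK119ub, of which there were 3708, had a median of 5.58 kb. Broad regions of 30 kb or more with H2AK119ub numbered 814, with a median of 42.0 kb. Each autosome held between 211 (chromosome 16) and 753 (chromosome 2) of the short regions with H2AK119ub, and their share of a chromosome's H3K27me3 regions ran from 57.0% on chromosome 14 to 72.2% on chromosome 11. Genes at regions of typical width were Irf4, an interferon regulatory factor gene (8.21 kb), Lrrc8c, a volume-regulated channel subunit gene (8.22 kb), Susd5 (8.22 kb), Cpm (8.195 kb) and Slc4a8 (8.205 kb).

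**Figure D1:**
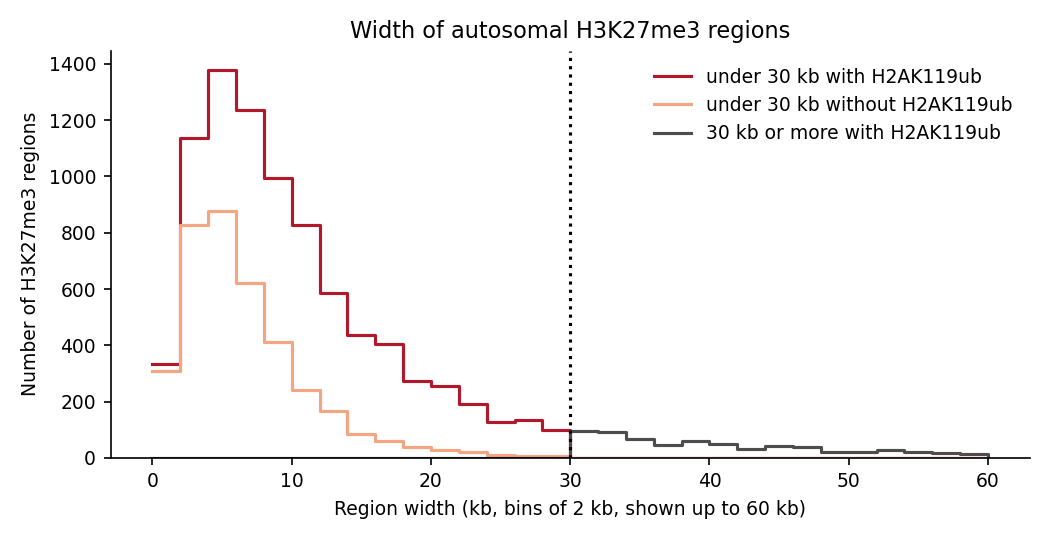
Number of autosomal H3K27me3 regions (vertical axis) by width in kb, in bins of 2 kb. Lines stand for regions under 30 kb with H2AK119ub, regions under 30 kb without it, and regions of 30 kb or more with it, and the dotted line marks the limit of 30 kb. The first set peaks between 4 and 6 kb, and the bins on either side of the limit hold 98 and 94 regions with H2AK119ub.

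The limit does not mark a break in the list. The widest regions below it lay on chromosome 5 from 37854047 to 37884008 and on chromosome 8 from 26371085 to 26401046, each 29962 bp and away from protein-coding genes, and on chromosome 6 from 88180761 to 88210698, 29938 bp wide over Gata2, a haematopoietic and endothelial factor gene. The narrowest regions just above it were 30018 bp at Jakmip3 and Dpysl4, 30022 bp inside Cacna1i and 30055 bp at the start of Dnah5. At the other edge of the rule, the smallest overlaps with H2AK119ub were 19, 21 and 25 bp. The closest excluded regions missed an H2AK119ub region by 2, 4 and 13 bp. Such near misses were few: 127 of the 3708 short regions without H2AK119ub (3.43%) lay within 1 kb of an H2AK119ub region, and the median gap was 22.8 kb.

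Most short regions sat wholly inside a larger H2AK119ub region. Of the 8417, 4536 (53.9%) were nested in 1 H2AK119ub region. A further 2095 (24.9%) were staggered, meeting 1 H2AK119ub region at 1 side. In 1363 (16.2%) the order was reversed and at least 1 whole H2AK119ub region lay inside the H3K27me3 region, and 423 (5.03%) bridged 2 or more H2AK119ub regions without holding one. In all, 79.7% of the length of the short regions was also called as H2AK119ub, and 1186 regions (14.1%) had under 50% of their width in it.

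Nested regions were the narrowest and took up a small part of their host. Their median width was 6.35 kb, against 8.74 kb for staggered, 12.9 kb for bridging and 13.5 kb for H2AK119ub-holding regions. The host H2AK119ub region had a median width of 38.5 kb (quartiles 19.8 and 73.9 kb), of which the nested region filled a median of 17.6%. The nearer edge of the host lay a median of 5.52 kb away and the farther edge 22.2 kb. Nested regions that ran to within 1 kb of a host edge numbered 778 (17.2%). The H2AK119ub regions held inside H3K27me3 regions were small, 1452 in number with a median of 5.14 kb, and 1004 of the 1363 holding regions touched 1 H2AK119ub region and no other. Narrow regions fit inside another region more easily, so the order of widths follows in part from the classes themselves.

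**Figure D2:**
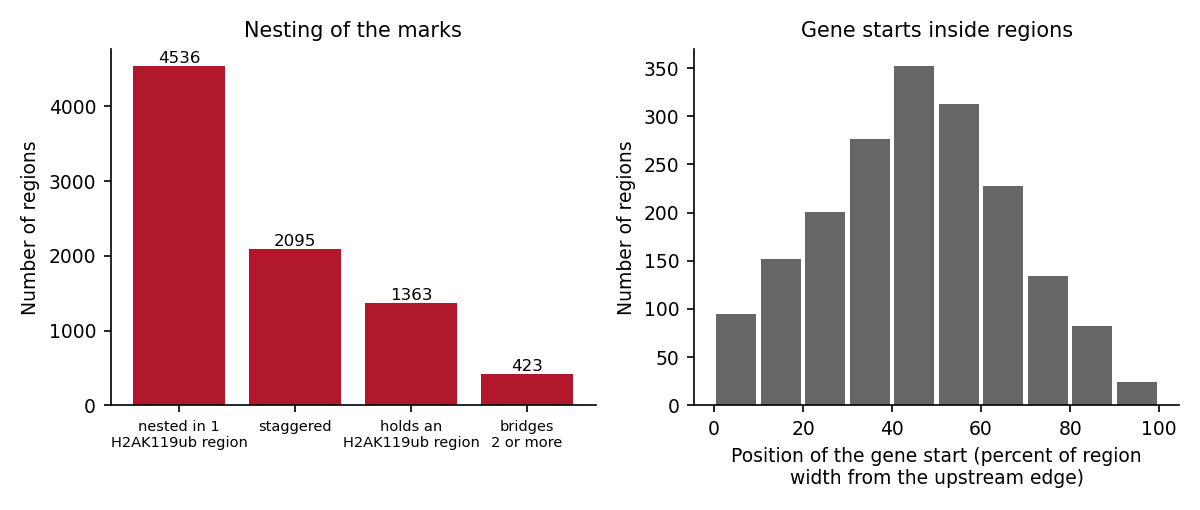
Left, number of short H3K27me3 regions in each nesting class relative to H2AK119ub regions, with the count above each bar. Right, number of regions by the place of the covered gene start, in percent of the region's width from its upstream edge. The nested class holds 4536 regions, and covered starts are most frequent between 40 and 50% of the width (352 regions).

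Several short regions often shared an H2AK119ub region. The 8417 regions met 7096 H2AK119ub regions, 23.6% of those on the autosomes. Of these, 5704 met 1 short H3K27me3 region, with a median H2AK119ub width of 10.8 kb. The other 1392 met 2 or more and had a median of 39.1 kb, and 75 met 5 or more. The H2AK119ub region with the most, 19, was the 581.8 kb region at Tle3, a Groucho corepressor gene, on chromosome 9. These 19 were 1.92 to 17.4 kb wide, their summed width was 28.3% of that region's, and none lay at a listed gene start. A 371 kb H2AK119ub region on chromosome 11 met 13, which included the starts of Itga3, an integrin gene of basal keratinocytes, and Hils1. This H2AK119ub region overlapped Col1a1, Dlx3 and Dlx4 among 10 genes. Another 13 met a 291 kb region of chromosome 2, at Sulf2, a heparan sulfate sulfatase gene, and Ncoa3. Their summed width was 65.6% of that region's. In both shares, parts that reach past the edge of the H2AK119ub region are counted. Smad6, an inhibitor of BMP signalling, lay in a 279 kb region with 11, and Kif26a and Aspg in a 346 kb region of chromosome 12 with 10.

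Many short regions lay close to another H3K27me3 region. The next H3K27me3 region of any width was a median of 7.90 kb away (quartiles 1.99 and 32.7 kb), and 3463 regions (41.1%) had one within 5 kb. For short regions without H2AK119ub the median gap was 16.3 kb. Broad regions with H2AK119ub are far fewer, 814 of the 12952, and the nearest was a median of 501 kb away. It lay within 50 kb of 1320 of the short regions (15.7%), and 627 (7.45%) shared an H2AK119ub region with one. How far the gaps depend on the unknown peak caller was not tested.

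Short regions lay at a gene start in 24.9%, and the largest class lay outside protein-coding genes. A start here is one listed in the RefSeq promoter table, which has 20084 starts of 16456 autosomal protein-coding genes (79.6% of those in the gene table). None is on chromosome 18, so its 224 short regions with H2AK119ub could not be counted at a start. Within 1 kb of such a start lay 2095 regions. A further 372 (4.42%) reached the 3′ end of a gene, 649 (7.71%) an end of a gene without a listed start, 1819 (21.6%) lay elsewhere inside a gene and 3482 (41.4%) lay outside. Of short regions without H2AK119ub, 439 of 3708 (11.8%) lay at a start and 56.2% outside genes. Broad regions with H2AK119ub lay at a start in 395 of 814 (48.5%), and H2AK119ub regions without H3K27me3 in 4264 of 21893 (19.5%).

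**Figure D3:**
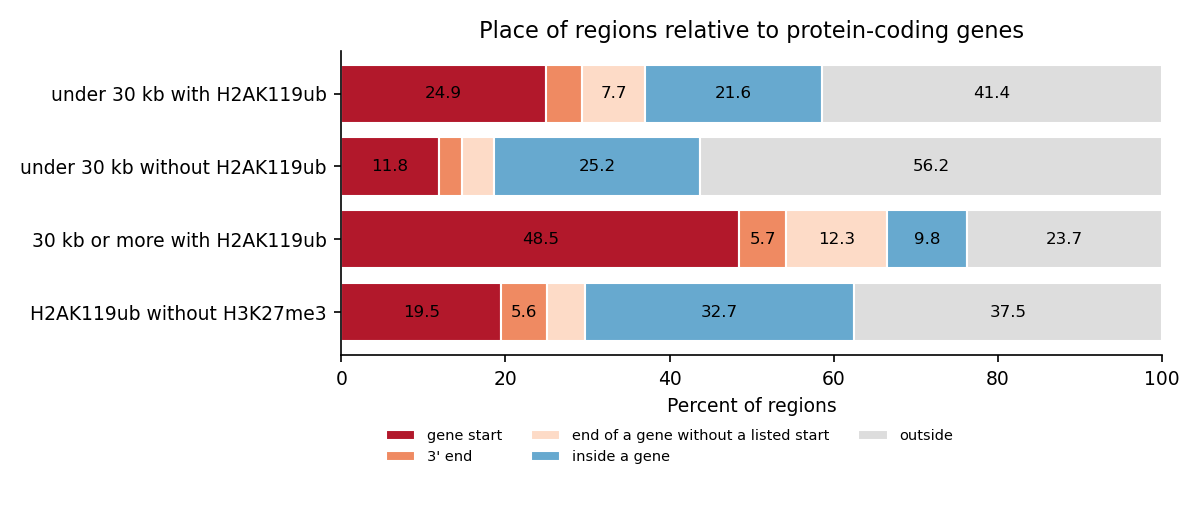
Percent of regions (horizontal axis) in each place class relative to protein-coding genes, for 3 sets of autosomal H3K27me3 regions and for H2AK119ub regions without H3K27me3. Classes are exclusive and taken in the order of the legend, with a window of 1 kb at starts and ends. Short regions with H2AK119ub lie at a gene start in 24.9% and outside genes in 41.4%.

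A wide region meets a start more easily, and the sets differ in width, so the shares were also compared within width classes. Under 5 kb, 16.8% of short regions with H2AK119ub lay at a start, against 9.69% of those without and 13.6% of H2AK119ub regions without H3K27me3. From 5 to 10 kb the values were 22.4, 13.1 and 17.4%. From 10 to 20 kb they were 30.7, 14.0 and 22.4%, and from 20 to 30 kb 37.3, 15.9 and 31.2%, the last-but-one on 69 regions. The share with H2AK119ub was the higher of the 2 short sets on each of the 18 chromosomes with listed starts, where it ran from 15.4 to 33.0%, against 7.20 to 19.9%. Its lowest value was on chromosome 8, and how far starts missing from the promoter table set this range was not tested. By nesting class, a start was met by 35.7% of the regions that hold an H2AK119ub region, 23.5% of nested, 21.8% of staggered and 20.1% of bridging ones.

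Regions inside genes lay in long genes. The longest gene met by each had a median length of 122 kb, against 17.5 kb for all autosomal protein-coding genes, and a long gene offers more room. The 1819 regions fell in 1044 genes. The highest numbers, picked out after the values were seen, were 21 in Camta1, a calmodulin-binding transcription activator gene of 802 kb, 12 in Shank2, which encodes a scaffold of excitatory synapses, 11 each in Grik4, a kainate receptor subunit gene, and Rbfox3, a neuronal splicing factor gene, 10 each in Arhgap26 and Wwox, and 9 each in Glis1, Slit3 and Wdr95. Outside genes, the median distance to the nearest listed start was 51.5 kb (quartiles 18.8 and 134 kb), and 1097 of the 3482 regions (31.5%) were over 100 kb away. A listed lncRNA start lay within 1 kb of 464 of them (13.3%). Regions of chromosome 18, which has no listed protein-coding start, had no distance and counted among the 3482 as not over 100 kb away.

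At gene starts the short region usually ran across the start itself, as did regions of the other H3K27me3 sets. Taking for each of the 2095 regions the start nearest its centre, 1857 (88.6%) covered it, and in 1795 of these the start also lay in H2AK119ub. A start was also covered by 385 of the 439 short regions without H2AK119ub at a start (87.7%). Of the 395 broad regions at a start, 386 (97.7%) covered one. Starts were sought only up to 1 kb from a region, so a high share follows in part from that window. Covered starts stood near the middle. The region reached a median of 4.56 kb upstream (quartiles 2.41 and 7.70 kb) and 5.50 kb downstream (3.23 and 8.47 kb), and its centre lay downstream of the start in 57.9%. Choosing the start nearest the centre draws this distribution inwards where a gene lists several starts. The start was covered in 97.1% of the 486 regions that hold an H2AK119ub region and in 84.8% of the 1068 nested ones.

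In 238 regions the start lay outside, up to 1 kb from the edge, and in 182 of these it was still inside H2AK119ub. The region then lay upstream of the gene in 124 and downstream in 114. Kitl is of this kind. Its 9.50 kb region on chromosome 10 ended at 100015603, 218 bp before the listed start at 100015821, while the host H2AK119ub region of 35.7 kb ran on across the start. Bmp4, which encodes a secreted morphogen, was the reverse case, with a 1.86 kb region nested in 31.4 kb of H2AK119ub that lay over the gene and stopped 213 bp short of its start. Nr4a3, an inducible nuclear receptor gene, had a 24.6 kb region that began 115 bp downstream of its start. None of the 3 regions at cytosolic ribosomal protein genes covered the start: those at Rpl26, Rpl38 and Rpl34 ended 247, 685 and 790 bp upstream of it, and these 3 starts lay outside H2AK119ub as well. Among 5 Polycomb subunit genes with such a region, the start was covered at 1, Cbx6. At Bmi1, which encodes a core PRC1 subunit, the region began 667 bp downstream, and at Pcgf5 it ended 183 bp upstream.

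By gene, a listed start lay within 1 kb of a short region with H2AK119ub for 2173 of 16456 genes (13.2%), of a broad region with H2AK119ub for 500 (3.04%), and of a short region without H2AK119ub for 441 (2.68%). Any H2AK119ub region lay at 50.1% of genes, and 25.7% of these were genes at a short region. Of the 2173 genes, 12 also lay at a broad region. Families were defined by symbol, only members with a listed start were counted, and the genes named are those with the widest short region, so their widths stand at the upper end. Width chose the sets, and the contrast of short with broad regions over families was not tested.

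Lineage transcription factor genes, which direct the identity of other tissues, stood mostly at broad domains. Of 207 in 9 families, 57.5% lay at a broad region and 46 (22.2%) at a short one. The short regions at these genes were wide for their kind, with a median of 17.6 kb, against 10.3 kb for all short regions at starts. Homeobox genes outside the Hox clusters had 15 of 71 at short and 53 of 71 at broad regions, and the widest short ones were at Prrx1, a limb and craniofacial mesenchyme factor (29.9 kb), Gsx1 (29.1 kb) and Nkx2-9 (28.8 kb). Forkhead genes had 3 of 26 at short regions, Foxd4 (27.4 kb), Foxc1 (26.98 kb) and Foxa3 (4.61 kb), and 12 at broad ones. Among 22 Hox genes the only one at a short region was Hoxb1, and 16 lay at broad regions. Sox genes were divided the other way, with 6 of 13 at short and 3 at broad regions, and the former included Sox13 (28.2 kb), Sox11 (27.2 kb) and Sox8 (24.4 kb). Basic helix-loop-helix genes were split evenly, at 14 of 41 each. Short regions there were widest at the Notch target Hey2 (27.2 kb), at Neurog3 (21.4 kb), which specifies endocrine cells, and at Twist2 (21.2 kb). Nuclear receptor genes had 10 of 41 at short and 7 at broad regions.

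Genes for secreted signals were met mainly by short regions. Of 51 ligand genes of the Wnt, TGF-beta and Fgf families, 30 (58.8%) lay at a short region and 4 (7.84%) at a broad one. Wnt ligands led with 12 of 15 (80%). Their 14 regions had a median of 7.32 kb and 11 were nested, with the widest at Wnt1 (27.4 kb on chromosome 15, within 55.2 kb of H2AK119ub), Wnt7a (18.4 kb) and Wnt2 (13.3 kb). TGF-beta and BMP ligands had 11 of 21, among them Bmp6 (26.6 kb), Gdf7 (21.5 kb) and Gdf10 (20.6 kb). The region of Gdf10 held an H2AK119ub region of 11.4 kb and reached 10.2 kb upstream and 10.4 kb downstream of the start printed above. Fgf ligands had 7 of 15, with Fgf4 (28.8 kb, nested in 99.9 kb of H2AK119ub), Fgf23 (26.2 kb), the hormone of phosphate balance, and Fgf9 (23.1 kb).

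Receptors and antagonists of these pathways had lower shares at short regions. Wnt receptors and antagonists had 8 of 21 genes at short regions (38.1%) and 4 at broad ones, and the short regions were widest at the secreted antagonists Sfrp2 (22.9 kb), Dkk1 (21.2 kb) and Frzb (19.2 kb). BMP and TGF-beta antagonists and receptors had 5 of 20, including Chrd (15.9 kb), which binds BMPs, Fstl1 (10.6 kb) and Acvr1c (9.26 kb). In the axon guidance family of semaphorins, netrins, slits and their receptors the count was 14 of 38 (36.8%), led by Sema6b (25.1 kb), Ntng1 (20.9 kb) and Robo4 (20.5 kb). Ephs and ephrins stood near the background, at 3 of 20 (15%): Epha7 (20.8 kb), Epha3 (18.04 kb) and Epha5 (8.33 kb).

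Ion channel, transmitter receptor and neuropeptide genes, which serve excitable and endocrine cells, were also met by short regions. Of 96 voltage-gated, leak and calcium-activated channel genes and their auxiliary subunits, 57 (59.4%) lay at a short region and 8 at a broad one. Potassium channels had 39 of 67, with the widest at Kcnn3 (26.3 kb), Kcnk15 (26.1 kb) and Kcnma1 (25.8 kb). Sodium and calcium channels had 18 of 29, with Cacna2d3 (28.15 kb), Cacng6 (26.6 kb) and Scn4b (26.2 kb). Transmitter receptor genes had 34 of 73 (46.6%), against 5 at broad regions. Short regions without H2AK119ub also lay at genes of these families, at 14 of the 73 transmitter receptor and 10 of the 96 channel genes, against 2.68% of all genes. The transmitter receptor genes at short regions with H2AK119ub included the glutamate receptor genes Grm8 (27.2 kb), Grin2c (23.7 kb) and Grin1 (22.8 kb) and the amine and acetylcholine receptor genes Adra2b (25.8 kb), Chrna3 (22.1 kb) and Hrh1 (19.4 kb). Neuropeptide genes had 17 of 32 (53.1%), with Npy (19.1 kb), Cartpt (15.9 kb) and Ucn (14.8 kb). Of the region at Cartpt 16.5% was H2AK119ub, in a single 2.61 kb region that covered the start.

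**Figure D4:**
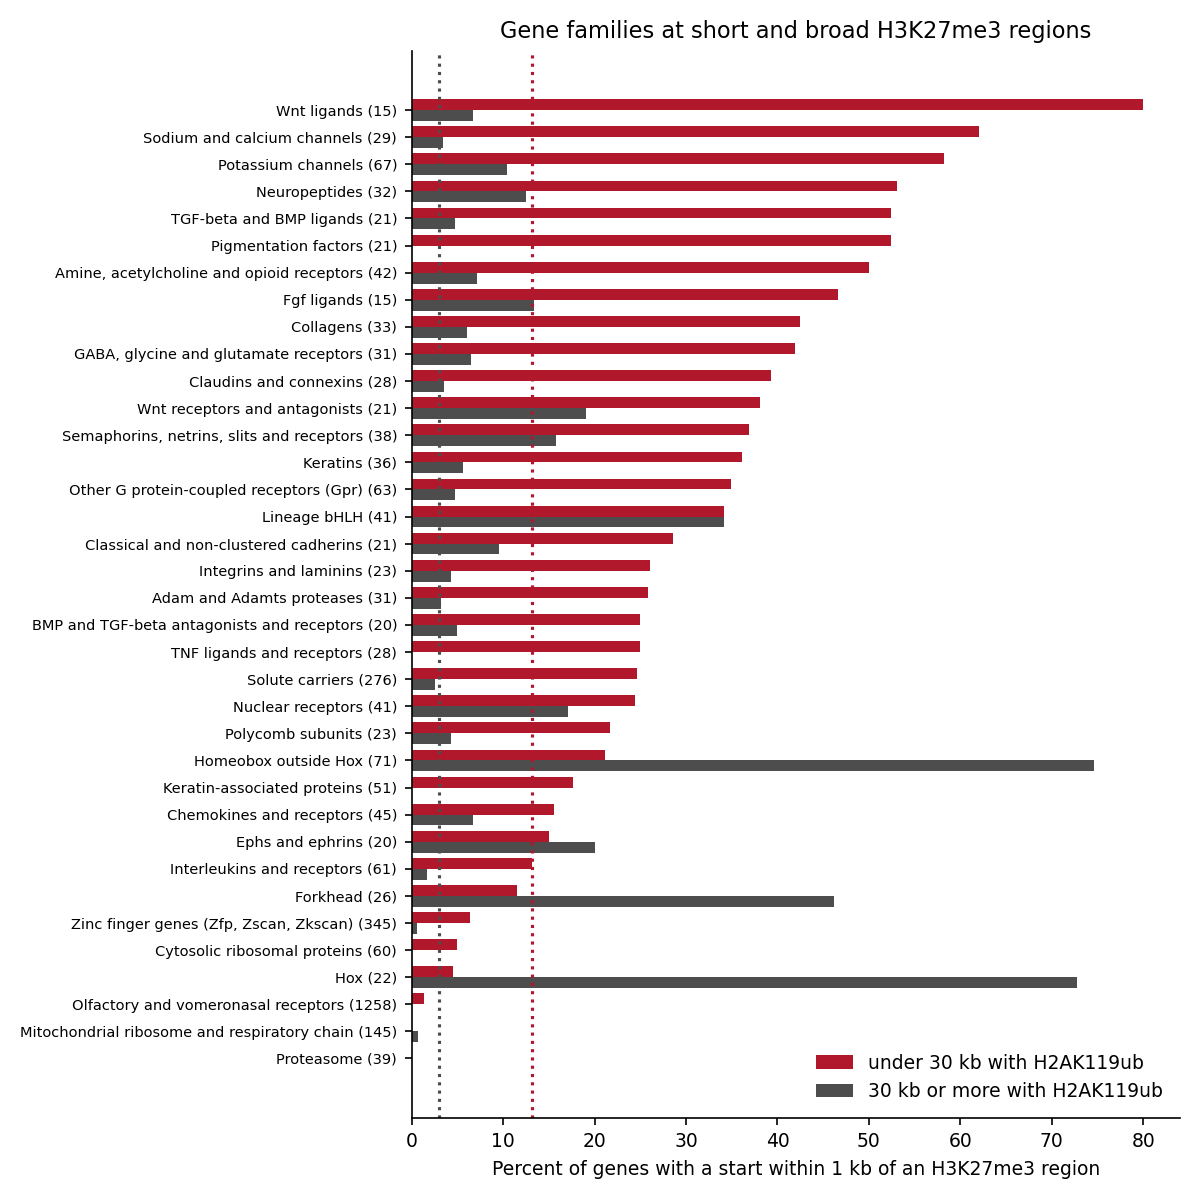
Percent of genes of each family (number with a listed start in brackets, families of 15 or more) with a start within 1 kb of a short or of a broad H3K27me3 region with H2AK119ub. Dotted lines are the values over all genes, 13.2 and 3.04%. Wnt ligands have the highest short value at 80%, and Hox and other homeobox genes have broad values of 72.7 and 74.6%.

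Genes of epithelial structure and matrix ranged from near the background to above it. Collagen genes had 14 of 33 (42.4%), with Col15a1 (27.1 kb), Col5a1 (22.0 kb) and Col13a1 (15.4 kb). Claudin and connexin genes, which build tight and gap junctions, had 11 of 28 (39.3%), with Cldn7 (19.1 kb), Gja5 (18.8 kb) and Cldn10 (17.8 kb). Keratin genes had 13 of 36 (36.1%) in 10 regions, of which 9 were nested, and the widest lay at Krt82 (24.5 kb), Krt72 (23.9 kb) and Krt12 (23.6 kb). Lower shares were found for cadherins, 6 of 21 (28.6%), integrins and laminins, 6 of 23 (26.1%), Adam and Adamts proteases, 8 of 31 (25.8%), and keratin-associated proteins of the hair shaft, 9 of 51 (17.6%). The suprabasal epidermis list had 2 of 14 (14.3%), Krt10 and Lor. Neighbouring keratin genes share regions and are not independent. Krt10, the keratin that replaces Krt14 when keratinocytes leave the basal layer, had a 9.57 kb region that covered its start by 192 bp, inside 66.9 kb of H2AK119ub. Of 11 genes on the basal epidermis list all had H2AK119ub at a listed start and 2 had a short H3K27me3 region, Dst (10.5 kb), which encodes a hemidesmosome linker, and Itga3 (7.33 kb). Solute carrier genes had 68 of 276 (24.6%).

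Immune families ranged from near the background to above it, and some large families lay below it. Chemokine and receptor genes had 7 of 45 (15.6%), including Cxcl12 (24.7 kb) and Cxcl1 (19.99 kb), interleukin and receptor genes 8 of 61 (13.1%), and TNF family genes 7 of 28 (25%). Zinc finger genes named Zfp, Zscan or Zkscan had 22 of 345 (6.38%). Olfactory and vomeronasal receptor genes had 17 of 1258 (1.35%), and 18 lay at a short region without H2AK119ub. In this family 19 genes (1.51%) had H2AK119ub at a start, against 50.1% of all genes. Of 145 genes of the mitochondrial ribosome and respiratory chain and 39 proteasome genes, 0 lay at a short region with H2AK119ub. In the first of these families 1 gene lay at a short region without H2AK119ub and 1 at a broad region. H2AK119ub lay at 50 (34.5%) and 9 (23.1%) of the genes, also below the share of all genes.

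All regions at pigmentation factor genes with both marks were of the short form. Of 21 genes of this list with a listed start, 11 lay at a short region with H2AK119ub (52.4%) and 0 at a broad one, but the list had been seen in earlier results of these data to carry both marks often. The regions ran from 1.86 kb at Bmp4 to 26.6 kb at Bmp6, with a median of 14.3 kb, and 3 were nested, at Asip, Bmp4 and Kitl. At the listed start of Asip the region was 2.67 kb wide and lay in 6.40 kb of H2AK119ub on chromosome 2 from 155008546 to 155014948. Melanocyte-stimulating hormone is cut from the product of Pomc, which had a 13.97 kb region of which 36.6% was H2AK119ub, and its start lay in H3K27me3 outside the H2AK119ub part. Igf1 (14.2 kb) and Fgf2 (14.3 kb), growth factor genes, had staggered regions with 72.1 and 93.1% in H2AK119ub. In the melanocyte list, Kit (9.83 kb), Mc1r (9.17 kb) and Mcam (8.71 kb) lay at short regions, 3 of 14.

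Promoters at short regions were close in CpG ratio to all promoters, a set that includes them. The CpG ratio is the number of CG found over the number expected from the C and G content of the 300 bases. Its median was 0.611 (quartiles 0.352 and 0.800) over the 2547 starts within 1 kb of a short region with H2AK119ub, 0.644 over 602 starts at broad regions, 0.412 over 503 at H3K27me3 without H2AK119ub, 0.689 over 7134 with H2AK119ub alone 0.419 over 9298 with neither mark and 0.586 over all starts. A start was called CpG-rich with over 50% G and C and a ratio over 0.6. This held for 49.7% of starts at short regions, 51.8% at broad regions, 24.7% at H3K27me3 without H2AK119ub, 56.7% with H2AK119ub alone and 46.2% of all starts. With neither mark it held for 38.1%. Of the starts with neither mark, those outside the olfactory and vomeronasal families (8078) had a median ratio of 0.560, and 43.8% were CpG-rich. The median G and C content was 61.0% at short regions, 60.3% at broad regions and 54.0% at H3K27me3 without H2AK119ub. It was 60.3% with H2AK119ub alone, 51.0% with neither mark and 57.0% over all starts. Starts of 1 gene overlap in sequence and are not independent.

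**Figure D5:**
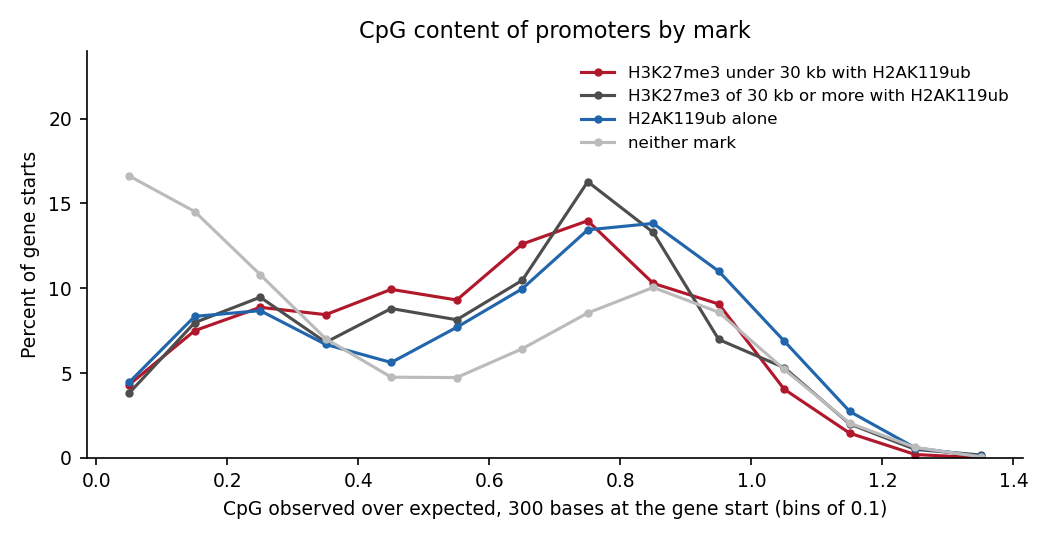
Percent of gene starts (vertical axis) by CpG ratio of the 300 bases at the start, in bins of 0.1, for starts at short and broad H3K27me3 regions with H2AK119ub, with H2AK119ub alone and with neither mark. Each line adds to 100%. Starts with neither mark are most frequent in the lowest bin, and the other 3 lines peak between 0.7 and 0.9.

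Starts just outside a short region were richer in CG than starts inside one. The 238 uncovered starts had a median ratio of 0.767 and 66.8% were CpG-rich, as at Kitl (ratio 0.795), against 0.607 and 49.4% for the 1857 covered starts. Promoters at short regions also differed between families. Promoters of signalling ligands at short regions had a median ratio of 0.766 and 72.7% were CpG-rich (33 starts), those of lineage transcription factors 0.681 and 62.0% (50 starts), those of ion channels 0.549 and 45.8% (72 starts), and those of olfactory and vomeronasal receptors 0.191 with 0 of 17 CpG-rich. These differences were not tested.

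Short sequence motifs in the same 300 bases were searched on both strands. The letters GGGCGG, which bind Sp factors and hold a CG themselves, occurred in 56.9% of starts at short regions, 49.8% at broad regions, 60.2% with H2AK119ub alone and 47.0% of all starts. TATAAA, the TATA box, occurred in 9.66, 10.5, 7.42 and 12.7% in the same order, CCAAT in 31.8, 35.7, 36.7 and 38.1%, and CANNTG, the E-box, in 68.5, 66.1, 66.7 and 68.7%. At starts with H3K27me3 without H2AK119ub and with neither mark, GGGCGG occurred in 35.2 and 34.7% and TATAAA in 12.7 and 17.8%. There CCAAT occurred in 37.4 and 41.1% and CANNTG in 72.6 and 70.2%. CANNTG reads the same on both strands, and matches of different motifs may overlap.

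Of 919 autosomal microRNA hairpins, 58 (6.31%) shared at least 1 bp with a short region with H2AK119ub, in 47 regions, against 34 (3.70%) with a broad region, 19 (2.07%) with a short region without H2AK119ub and 424 (46.1%) with any H2AK119ub region. The seed GGCAGUG is that of the miR-34 and miR-449 family, known from ciliated cells, and the miR-34 genes are known as targets of p53. It occurs in 4 autosomal genes of the table, of which Mir34b, Mir449a and Mir449c lay in short regions and Mir34a in no H3K27me3 region. The only mature sequence listed for Mir34c is miR-34c-3p, with the seed AUCACUA. The other arm of Mir34c could therefore not be counted, and its absence from the count does not place it outside the family. Mir34b and Mir34c shared a 28.5 kb region on chromosome 9 from 51090598 to 51119127 that holds H2AK119ub. Mir449a and Mir449c shared a staggered 20.2 kb region on chromosome 13 from 113020903 to 113041070. Mir132 and Mir212, neuronal microRNAs with the seed AACAGUC, are the 2 genes with that seed and lay together in a nested 11.6 kb region on chromosome 11 from 75164685 to 75176299. Others were Mir183 and Mir96, known from sensory cells, in a nested 18.7 kb region on chromosome 6, and the neuronal Mir137 in an 11.5 kb region on chromosome 3. Clustered hairpins share a region and count as 1 locus.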

How the data were processed

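Chromatin immunoprecipitation libraries for H2AK119ub (2), H3K27me3 (2) and an input (1) were sequenced as single reads of 75 nt. For each mark the authors deposited a single list of regions, whose columns are positions (chromosome, start, end) per the file headers. The submitters' processing notes name Bowtie2 2.3.3.1, SAMtools 1.9 and mm10, without role. Neither the peak caller and its settings nor whether the input was used or libraries were pooled is given in the sources used here. These set the number, width and gaps of regions, so counts cannot be read as amounts of a mark. Starts were read as counted from 0 and printed as counted from 1.

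Overlaps, gaps and place classes were computed with pandas 2.3.3 and numpy 2.4.6 and checked on simulated intervals. Gene ends came from a RefSeq gene table of GRCm38.p6 and gene starts with strand from a RefSeq promoter table of that build, which lists 16456 of 20661 autosomal protein-coding genes and none on chromosome 18. The planned classes were kept, with 1 class added for ends of genes without a listed start. There were 47 gene lists. Genes named are up to 3 per list with the widest region, all of the pigmentation list, those at the limits of the rule, in the 5 H2AK119ub regions with most members, and 5 of typical width. The members and lists were chosen with earlier results of these data known. Families pooled into larger groups were pooled after values were seen. With 1 list per mark no test over samples exists, and none was made.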

Additional observations from a re-analysis of the deposited data

How the results depend on the processing

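Counts of regions and genes were compared with the main values within 1.5 times, and shares with the 95% Clopper-Pearson interval of the main share, which covers counting error only. That interval treats regions as independent, although 41.2% shared an H2AK119ub region with another short one. The alternatives also reuse the same lists, so the interval served as a yardstick and not as a test. With a limit of 20 kb in place of 30 kb, 23.6% of regions lay at a gene start, 56.4% were nested and 42.6% lay outside genes. With a limit of 10 kb there were 5081 regions and 1053 genes, and the shares were 20.04% at a start, 65.7% nested, 23.8% inside genes and 45.6% outside. Requiring at least 50% of a region in H2AK119ub raised the nested share to 62.7%. Nested regions lie wholly in H2AK119ub, so this filter could only remove other classes, and the direction was fixed in advance. Merging H3K27me3 regions under 5 kb apart left 5865 regions in place of 8417, and 1869 genes in place of 2173. Of the merged regions 30.1% lay at a start, 50.2% were nested, 19.2% lay inside genes and 37.5% outside. Merging H2AK119ub regions under 1 kb apart gave 55.3% nested. With a window of 0 bp 22.1% lay at a start, with 5 kb 30.4% and with the starts of all annotated genes 32.7%. Chosen after seeing the data, either end of every protein-coding gene gave 35.7% and 3286 genes, and leaving out chromosomes 8, 15 and 18 gave 26.4%. Merging H3K27me3 regions under 1 kb apart and counting starts from 1 kept every share within its interval. The count of listed family genes at a region was 459, and 386 to 502 over 3 alternatives. Per family, 41 of 43 counts stayed within 1.5 times under each of these. With a window of 0 bp the cytosolic ribosomal count fell from 3 to 0 and the Polycomb count from 5 to 1. With 50% in H2AK119ub the olfactory count fell from 17 to 6 and the Pax count from 1 to 0. With a window of 5 kb, Hox genes counted 3 and keratin-associated genes 14 in place of 9. No stricter calling threshold could be tried without scores, and no library could be left out. No paired analysis was possible because each list carries no replicate. Depth is unknown, so a gene without a region may carry a mark below the threshold.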
